A study of Rattus norvegicus with 6 samples.

Results

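Class I phosphoinositide 3-kinases (PI3K) and AKT were read here as 9 transcripts, chosen by gene symbol: the catalytic subunits Pik3ca, Pik3cb, Pik3cd and Pik3cg, the regulatory subunits Pik3r1, Pik3r2 and Pik3r3, and the kinases Akt1 and Akt2. All 9 were found, each as a single row, among 22396 genes in the deposited tables, and all 9 passed the filter on low counts, as did 17096 genes in all. The libraries came from the basal temporal lobe of adult male Sprague-Dawley rats with subarachnoid hemorrhage (SAH), induced by injecting the rat's own femoral artery blood into the cisterna magna. The SAH + 6-gingerol group (3 rats) received 10 mg/kg of 6-gingerol, a compound of ginger, by intraperitoneal injection 1 h post-SAH, and the SAH + PBS group (3 rats) received phosphate-buffered saline (PBS), its vehicle. Where values are listed, 6-gingerol and PBS stand for these groups, with replicates 1, 2 and 3 in that order. Tissue was collected at 24 h, and each rat gave 1 library. Sham rats were not analysed here, and both groups carried the hemorrhage, so the values speak only of 6-gingerol against its vehicle after SAH, in 1 sex and at 1 time. The word Control in the deposited column names stands for the SAH + 6-gingerol libraries, as the sample titles show.

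A class IA PI3K is a pair of 1 catalytic and 1 regulatory subunit. The regulatory subunit holds the catalytic one stable and inactive until it binds a phosphorylated receptor or adaptor, and the catalytic subunit then makes the membrane lipid PIP3. AKT binds PIP3, is phosphorylated by PDK1 and by mTOR complex 2, and then phosphorylates substrates that favour cell survival and growth, in neurons as in other cells. Activity in this pathway is carried by lipids and phosphorylation, which counts do not measure. The comparison therefore addresses whether the transcripts of the pathway's core differed between SAH + 6-gingerol and SAH + PBS rats.

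Total counts were 62762808 to 66761380 with 6-gingerol, against 64053899 to 65606360 with PBS, of which the 9 transcripts held 42045 to 43417 and 39994 to 44928 counts. SAH + PBS replicate 2 stood apart: 19.8% of its genes lay over 2-fold away from its group, against 4.11% to 11.02% in the other 5 libraries. Log2 fold changes without that rat are given where leaving it out moved them by over 1.5 times. Scaling also matters at this size of change. Trimmed-mean (TMM) factors were 0.954 to 0.965 with 6-gingerol, against 1.01 to 1.08 with PBS. Scaling by library totals instead moved the median log2 fold change of all genes by -0.12, and the share of genes with a positive value was 46.9% with TMM and 35.0% with totals. Levels in CPM (counts scaled to a common library size) are TMM-normalized, whereas the deposited FPKM, which also divide by gene length, follow library totals. All 6 libraries held brain transcripts, and the 8 neuronal markers summed to 8302 to 8678 CPM with 6-gingerol, against 3602 to 6770 CPM with PBS. Choroid plexus and ependyma markers summed to 1125 and 329 CPM in SAH + PBS replicates 1 and 3. The sum was 4.53 CPM in SAH + PBS replicate 2 and 4.68 to 10.8 CPM with 6-gingerol. Fits without SAH + PBS replicate 2 thus kept the 2 libraries with high sums of these markers.

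None of the 9 transcripts passed the correction over all genes in edgeR's quasi-likelihood test, where 0.0175% of genes (3 genes) did. Pik3r2 had an unadjusted p under 0.05 and no overlap between the groups. No other member had either, where 13.9% of all genes had such a p and 27.2% had no overlap (13.8% higher, 13.4% lower with 6-gingerol). Of the 9 log2 fold changes, given as SAH + 6-gingerol over SAH + PBS, 6 were positive and 3 negative, from -0.19 (Pik3cg) to 0.38 (Pik3r2), and 8 were under 0.26 in size, as were 47.6% of all genes. For all 9 the 95% interval of the fold change lay within 2-fold either way, as for 57.0% of genes, and for 6 within 1.5-fold, as for 28.8%. The outermost bound was 1.66-fold. These shares cover all tested genes and were not matched for level. All 9 members had at least 1 CPM in every rat, as did 13666 genes. Nothing was called among the 9 in any of 16 alternative settings, DESeq2 included, which called 3.70% of the genes it tested. Without SAH + PBS replicate 2, edgeR called 0.524% of genes and none of the 9.

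Measured per length, the kinase Akt1 and the regulatory subunit Pik3r2 were the most abundant of the 9 in every library. Over the 6 rats Akt1 averaged 64.8 FPKM (62.7 to 69.4) and Pik3r2 58.3 FPKM (43.9 to 65.4), with overlapping ranges. Akt2 (22.6 FPKM), Pik3r1 (20.2 FPKM) and Pik3ca (15.7 FPKM) came next, where Akt2 overlapped Pik3r1 and Pik3r1 overlapped Pik3ca. A gap separated these from Pik3r3 (8.03 FPKM), Pik3cb (7.84 FPKM) and Pik3cd (5.30 FPKM), of which each overlapped the next. Pik3cg was lowest at 1.19 FPKM (1.04 to 1.48), below every value of the other 8.

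**Figure D1:**
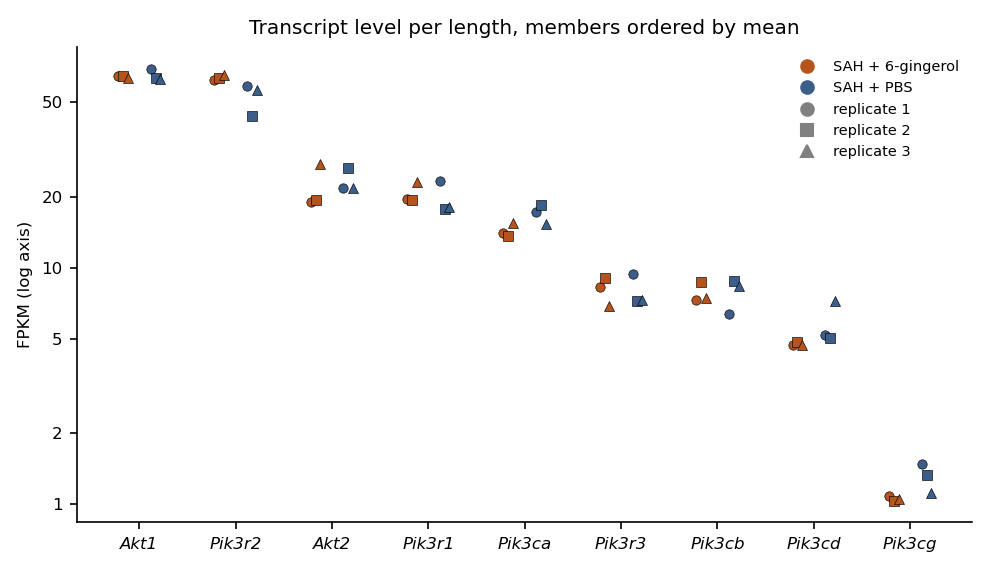
FPKM of each member in each rat on a log axis, in order of the mean over 6 rats, with SAH + 6-gingerol rats in orange left of SAH + PBS rats in blue and a symbol for each replicate number. Akt1 lies between 62.7 and 69.4 FPKM in all rats, and Pik3cg between 1.04 and 1.48 FPKM.

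Of the catalytic subunits, Pik3ca and Pik3cb encode the widely expressed p110-alpha and p110-beta. Pik3ca (ENSRNOG00000056371, Rnor_6.0 chromosome 2, 118831350 to 118861454, plus strand) had 93.2, 90.3 and 103 CPM with 6-gingerol, against 106, 109 and 97.0 CPM with PBS. SAH + 6-gingerol replicate 3 lay above SAH + PBS replicate 3, so the groups overlapped. The log2 fold change came to -0.12 (standard error 0.10, adjusted p = 0.544 in edgeR), with a 95% interval of 0.773-fold to 1.09-fold. Pik3cb (ENSRNOG00000016384, chromosome 8, 107275725 to 107380933, minus strand) had 36.7, 43.7 and 37.7 CPM with 6-gingerol, against 29.8, 39.5 and 40.1 CPM with PBS. The lowest value was that of SAH + PBS replicate 1, and the other 5 rats were interleaved. Its log2 fold change was 0.11 with TMM scaling (standard error 0.16, adjusted p = 0.728 in edgeR), 0.17 without SAH + PBS replicate 2 and -0.01 with library totals.

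Pik3cd and Pik3cg encode p110-delta and p110-gamma, known mainly from leukocytes. p110-gamma is the class IB form, which works with adaptors of its own. Pik3cd (ENSRNOG00000016846, chromosome 5, 166602053 to 166628028, minus strand) had 23.6, 24.1 and 23.8 CPM with 6-gingerol, against 23.9, 22.5 and 34.3 CPM with PBS. Of these 6 values 5 lay within 22.5 to 24.1 CPM, and only SAH + PBS replicate 3 stood above them. The log2 fold change of -0.17 (standard error 0.18, adjusted p = 0.63 in edgeR) was 0.04 without that rat and -0.29 without SAH + PBS replicate 2. Pik3cg (ENSRNOG00000009385, chromosome 6, 51465908 to 51498337, minus strand) had 7.38, 6.97 and 7.15 CPM with 6-gingerol, against 9.30, 8.06 and 7.15 CPM with PBS. SAH + PBS replicate 3 lay within the range of the SAH + 6-gingerol rats, and the log2 fold change came to -0.19 (standard error 0.17, adjusted p = 0.579 in edgeR).

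Markers of infiltrating leukocytes were low and uneven beside these values. The 6 neutrophil markers with a row summed to 4.39 to 6.06 CPM with 6-gingerol, against 10.7 to 65.6 CPM with PBS, with the highest sum in SAH + PBS replicate 2. S100a8, Mpo and Cxcr2 of that list were at 0 in some libraries. The 7 lymphocyte markers with a row, each at 0 in at least 1 library, summed to 0.513 to 0.970 CPM and 0.182 to 3.15 CPM. The 6 microglial markers summed to 276 to 287 CPM with 6-gingerol, against 274 to 298 CPM with PBS. The 4 macrophage markers with a row summed to 18.4 to 24.7 CPM with 6-gingerol, against 21.7, 46.1 and 34.5 CPM with PBS. Pik3cd was highest in SAH + PBS replicate 3, and Pik3cg in SAH + PBS replicate 1. The part of these cells in the values of Pik3cd and Pik3cg was not tested, and in bulk tissue fewer cells of a type and less RNA per cell cannot be told apart.

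Of the regulatory subunits, Pik3r2 encodes p85-beta. Its gene (ENSRNOG00000019228) lies on the plus strand of chromosome 16, from 20416432 to 20424980. Pik3r2 had 202, 205 and 213 CPM with 6-gingerol, against 176, 127 and 173 CPM with PBS. All SAH + 6-gingerol rats lay above all SAH + PBS rats, and SAH + PBS replicate 2 was the lowest. A higher level without overlap was found for 13.8% of all genes. The means were 207 ± 5.83 against 159 ± 27.4 CPM (SD, n = 3 each), and the log2 fold change came to 0.38 (standard error 0.15), a fold of 1.303 with a 95% interval of 1.02 to 1.66. The unadjusted p was 0.038 in edgeR, rank 1842 of 17096 genes, and the adjusted p was 0.353. Across the 16 alternatives the log2 fold change stayed positive, from 0.25 without SAH + PBS replicate 2 to 0.46 without SAH + PBS replicate 1, with adjusted p from 0.178 to 0.646.

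Markers of neurons, astrocytes and oligodendrocytes had values in the same direction as Pik3r2. All 5 astrocyte markers had positive log2 fold changes, with a median of 0.29, or 0.16 without SAH + PBS replicate 2. All 5 oligodendrocyte markers did too, with a median of 0.55, or 0.31 without that rat. Both sums were lowest in SAH + PBS replicate 2 (1506 and 2463 CPM). The 8 neuronal markers all had positive log2 fold changes, with a median of 0.57, or 0.35 without SAH + PBS replicate 2, and none passed the correction. Their sum was lowest in SAH + PBS replicate 2 (3602 CPM), as was Pik3r2. Set against that sum within each rat, a comparison chosen after the values were seen, Pik3r2 had 24.4, 24.5 and 24.6 CPM per 1000 CPM of neuronal markers with 6-gingerol, against 29.8, 35.3 and 25.6 with PBS. On that scale the order of the groups was turned round, again without overlap. This level was not computed for all genes, so no share stands beside it. Pik3r2 was not set against the astrocyte or oligodendrocyte sums, which both overlapped between the groups. The neuronal markers themselves had log2 fold changes from 0.06 (Gad1) to 0.94 (Map2). The part of neuronal, astrocyte or oligodendrocyte content in the level of Pik3r2 was not tested.

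Pik3r1 encodes p85-alpha and its shorter forms, and Pik3r3 the smaller subunit p55-gamma. Pik3r1 (ENSRNOG00000018903, chromosome 2, 31745088 to 31826867, minus strand) had 84.9, 83.5 and 101 CPM with 6-gingerol, against 93.5, 68.6 and 74.1 CPM with PBS. SAH + PBS replicate 1 lay above 2 of the 3 SAH + 6-gingerol rats, and the log2 fold change came to 0.19 (standard error 0.15, adjusted p = 0.532 in edgeR). Pik3r3 (ENSRNOG00000000145, chromosome 5, 135074297 to 135142488, plus strand) had 17.8, 19.2 and 14.8 CPM with 6-gingerol, against 18.5, 13.7 and 14.8 CPM with PBS. The groups overlapped, with a log2 fold change of 0.13 (standard error 0.18, adjusted p = 0.704 in edgeR). Both values were smaller without SAH + PBS replicate 2, at 0.10 for Pik3r1 and 0.05 for Pik3r3.

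Akt1 was the steadiest of the 9 in the treated rats, and Akt2 the least steady. Akt1 (ENSRNOG00000028629, chromosome 6, 137218376 to 137236258, minus strand), the widely expressed AKT, had 163, 162 and 162 CPM with 6-gingerol, a coefficient of variation of 0.511%. It had 162, 143 and 149 CPM with PBS, of which replicate 1 lay among the SAH + 6-gingerol rats. The log2 fold change came to 0.10 (standard error 0.09, adjusted p = 0.595 in edgeR), with a 95% interval of 0.916-fold to 1.25-fold. Without SAH + PBS replicate 2 it was 0.06 and with library totals -0.02, so no direction is given for Akt1.

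Akt2 (ENSRNOG00000018677, chromosome 1, 84411726 to 84450162, plus strand), the AKT known for its role in insulin-driven glucose uptake, had 39.3, 39.7 and 57.3 CPM with 6-gingerol. It had 41.7, 48.9 and 42.7 CPM with PBS. SAH + 6-gingerol replicate 3 was the highest of the 6 and the other SAH + 6-gingerol rats the lowest. The log2 fold change of 0.03 (standard error 0.18, adjusted p = 0.933 in edgeR) was -0.17 without that rat, 0.11 without SAH + PBS replicate 2 and -0.09 with library totals.

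**Figure D2:**
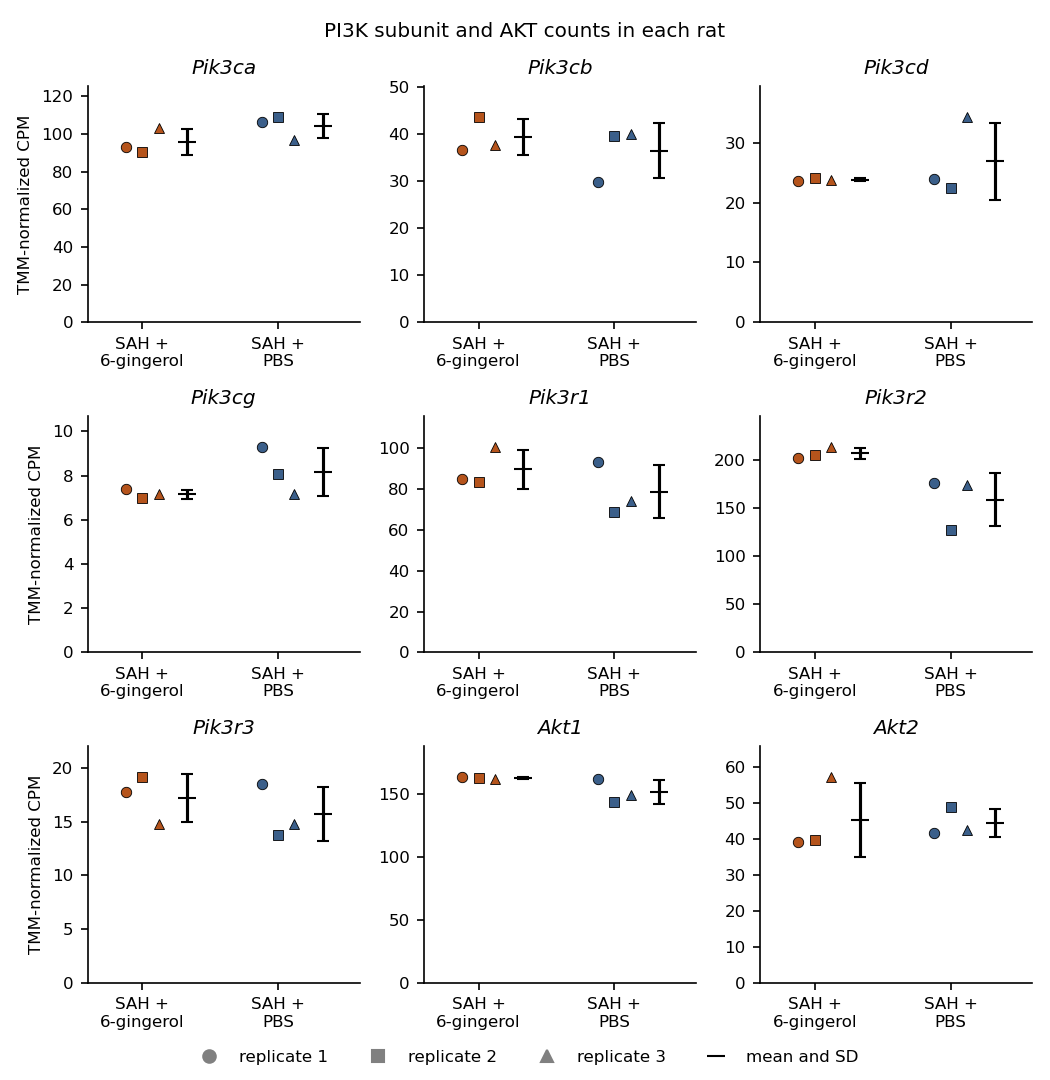
TMM-normalized CPM of each member in each of 3 SAH + 6-gingerol rats (orange, left) and 3 SAH + PBS rats (blue, right), with axes from 0, a symbol for each replicate number and the mean and SD at the side. The groups do not overlap for Pik3r2 (202 to 213 CPM against 127 to 176 CPM) and overlap for the other 8.

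**Figure D3:**
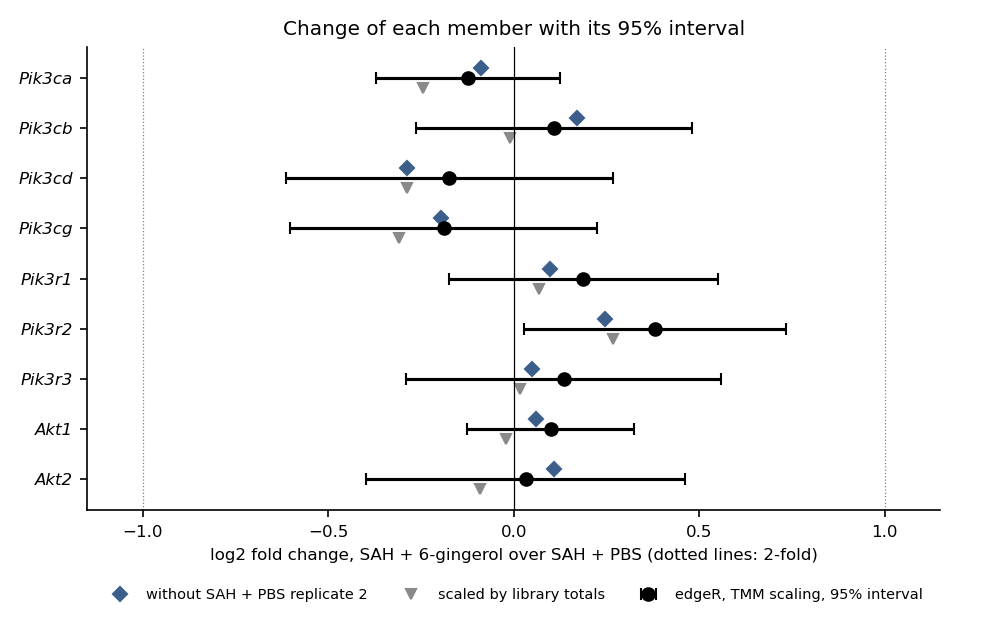
Log2 fold change of each member, SAH + 6-gingerol over SAH + PBS, with its 95% interval from edgeR (black), the value without SAH + PBS replicate 2 (blue diamonds) and the value scaled by library totals (grey triangles). All intervals lie inside the dotted lines at 2-fold, and only that of Pik3r2 leaves out 0.

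Ratios between members within a rat do not depend on how libraries are scaled. With 3 rats against 3, the 2-sided exact permutation test used for them cannot give a p below 0.1. Of 5 ratios, 1 did not overlap between the groups. The summed FPKM of the regulatory subunits Pik3r1, Pik3r2 and Pik3r3 was 3.47, 3.38 and 3.46 times that of the class IA catalytic subunits with 6-gingerol, against 3.16, 2.14 and 2.64 times with PBS. Every SAH + 6-gingerol rat thus had more regulatory transcript per catalytic transcript than any SAH + PBS rat. The log2 ratio was 1.78 ± 0.02 against 1.39 ± 0.28 (SD, n = 3 each), a difference of 0.39 (exact permutation p = 0.1, adjusted p = 0.5 over the 5 ratios). It was 0.25 without SAH + PBS replicate 2 and 0.53 without SAH + PBS replicate 1.

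Pik3r2 made up most of the regulatory sum, at 68.9 ± 0.285% with 6-gingerol, against 65.6 ± 2.92% with PBS (SD, n = 3 each). Which of the sums, regulatory or catalytic, separated the groups depended on the scaling. The catalytic sum here is that of all 4 subunits and so includes Pik3cg, which the ratio left out. On the library-total scale of the FPKM the regulatory sums overlapped and the catalytic sums did not. The regulatory sum was 92.5 ± 2.55 against 80.7 ± 11.2 FPKM, and the sum of all 4 catalytic subunits was 28.0 ± 0.793 against 32.01 ± 1.61 FPKM (SD, n = 3 each). With FPKM divided by the TMM factors, the catalytic sums overlapped (28.2 to 30.02 with 6-gingerol, against 29.2 to 31.7 with PBS) and the regulatory sums did not (94.1 to 99.96 with 6-gingerol, against 64.0 to 87.9 with PBS). Pik3ca held 51.2 ± 2.80% of the catalytic sum with 6-gingerol, against 53.1 ± 4.76% with PBS, and Pik3cg 3.79 ± 0.205% and 4.12 ± 0.721% (SD, n = 3 each).

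The other 4 ratios overlapped between the groups. Akt1 over Akt2 was 3.41, 3.36 and 2.31 with 6-gingerol, against 3.19, 2.40 and 2.87 with PBS (exact permutation p = 0.6). Pik3ca over Pik3cb was 1.92, 1.56 and 2.07 against 2.70, 2.08 and 1.83 in the same order of groups (exact permutation p = 0.4). The balance of the p85 genes, Pik3r1 over Pik3r2, was 0.314, 0.306 and 0.353 with 6-gingerol, against 0.399, 0.404 and 0.320 with PBS, where SAH + PBS replicate 3 lay inside the other group (exact permutation p = 0.2). The leukocyte subunits over the widely expressed ones (Pik3cd and Pik3cg over Pik3ca and Pik3cb) were at 0.274, 0.264 and 0.253 with 6-gingerol, against 0.282, 0.235 and 0.352 with PBS (exact permutation p = 0.7). Adjusted over the 5 ratios these p were 0.5 to 0.7.

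**Figure D4:**
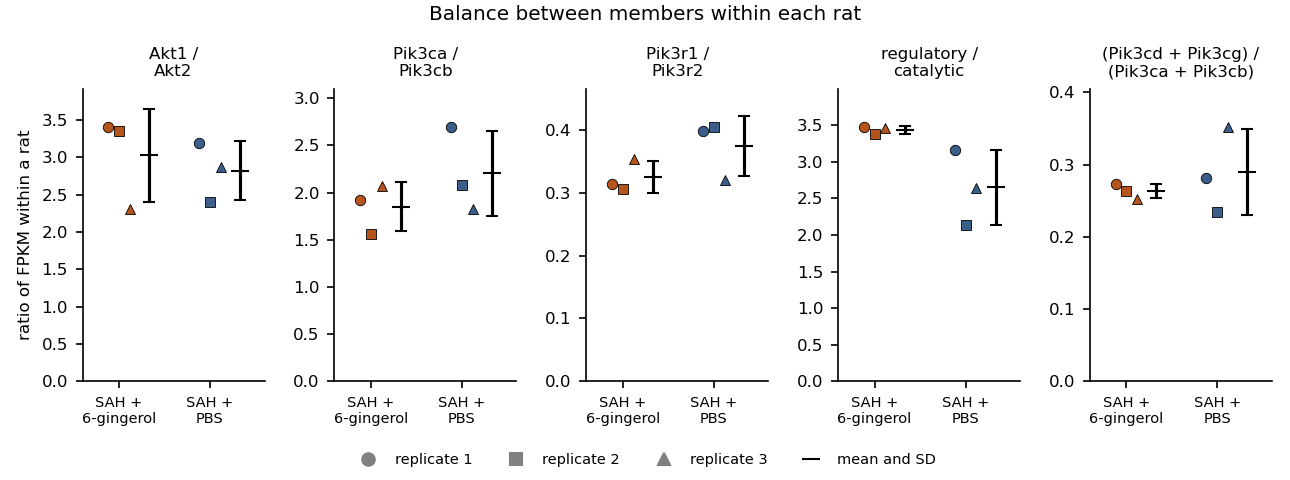
Ratio of FPKM within each rat for 5 pairs of members or sums of members, SAH + 6-gingerol (orange, left) and SAH + PBS (blue, right), with a symbol for each replicate number and the mean and SD at the side. Only the regulatory over catalytic ratio separates the groups, at 3.38 to 3.47 against 2.14 to 3.16.

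Beyond the 9, 87 other genes of the pathway were tested from lists of receptors, PI3K partners, phosphatases, kinases, substrates and FOXO targets. None passed the correction in edgeR. At an unadjusted p under 0.05 there were 4 higher genes (5.22% of all genes were) and 16 lower ones (8.71% of all genes). The median log2 fold change was -0.08 over these 87 genes and -0.03 over all genes tested. Without SAH + PBS replicate 2 these medians were -0.0011 and -0.01. The median size of the change, regardless of sign, was 0.13 for the 9 members, 0.26 for the other 87 genes and 0.28 for all genes. These sets were not matched for level. DESeq2, which called 3.70% of all genes it tested (159 higher, 504 lower), called 5 of the 87, all lower: Trib3, Eif4ebp1, Gadd45a, Sgk1 and Erbb2.

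Upstream of PI3K, 10 of 15 receptors and adaptors had negative log2 fold changes. Their median was -0.15 with all rats but 0.13 without SAH + PBS replicate 2. Of the 15, 2 were higher and 3 lower without overlap, as were 13.8% and 13.4% of all genes. The smallest p were those of Erbb2, a receptor tyrosine kinase (-1.80), Egfr, the epidermal growth factor receptor (-0.66), and Fgfr1, a fibroblast growth factor receptor (-0.84), each lower without overlap but with an adjusted p of 0.347 in edgeR. Erbb2 had 0.954, 1.01 and 0.869 CPM with 6-gingerol, against 1.91, 6.17 and 1.80 CPM with PBS. SAH + PBS replicate 2 held the highest value of each of the 3 genes. Without it the log2 fold changes were -0.97 (Erbb2), -0.52 (Egfr) and -0.46 (Fgfr1).

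Among the partners of class I PI3K, Pik3r5, the adaptor of p110-gamma, had 4.47, 4.69 and 3.94 CPM with 6-gingerol, against 6.94, 19.7 and 6.33 CPM with PBS. It did not overlap between the groups, but SAH + PBS replicate 2 decided its size, with a log2 fold change of -1.33 with that rat (adjusted p = 0.347 in edgeR) and -0.60 without it (adjusted p = 0.192 in edgeR). Pik3ap1, an adaptor of immune cells that recruits PI3K, had -1.03 with and -0.44 without that rat. Pik3ip1, a membrane inhibitor of PI3K, had 0.38 and 0.10. The class II and class III enzymes, which make other phosphoinositides, lay between -0.17 and 0.20 in all 5 genes. The smallest p were those of Pik3c3, the class III enzyme (0.20), Pik3c2a, a class II enzyme (-0.10), and Pik3r4, the partner of Pik3c3 (0.17), with adjusted p of 0.599 to 0.621 in edgeR. Without SAH + PBS replicate 2 Pik3c3 was at 0.03 and Pik3r4 at 0.0050.

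The lipid phosphatases, which remove phosphates from PIP3 and its products, had both signs, with 3 positive and 3 negative log2 fold changes. Inpp5d, the SHIP1 phosphatase of blood cells and microglia, had -0.40, Inppl1, its widely expressed relative, -0.30, and Inpp4a, which acts one step further, 0.34. None of the 6 had an unadjusted p under 0.05. Inppl1 was at -0.12 and Inpp4a at 0.17 without SAH + PBS replicate 2.

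Of 7 genes of the kinases that phosphorylate AKT, 5 had positive values. Pdpk1, which encodes PDK1, had 63.4, 60.4 and 60.9 CPM with 6-gingerol, against 56.5, 35.3 and 55.7 CPM with PBS. The groups did not overlap, and the log2 fold change of 0.32 (adjusted p = 0.432 in edgeR) was 0.13 without SAH + PBS replicate 2. Mtor, which overlaps the far less counted Angptl7 on the other strand, had 0.33 (adjusted p = 0.4 in edgeR), and Rictor, the subunit that defines mTOR complex 2, -0.08 (adjusted p = 0.729 in edgeR). Mtor was at 0.18 and Rictor at -0.0031 without SAH + PBS replicate 2. The smallest p of the list was that of Deptor, which is not a kinase but an inhibitor bound to mTOR, at 0.48 (adjusted p = 0.349 in edgeR). Next was Prr5, a subunit of mTOR complex 2, at -0.35 (adjusted p = 0.388 in edgeR).

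Among 9 AKT phosphatases and inhibitors, the pseudokinase Trib3, known to bind AKT, had the smallest p, with a log2 fold change of -4.33 (adjusted p = 0.345 in edgeR). It had 0.127, 0.186 and 0.201 CPM with 6-gingerol, against 3.50, 6.79 and 0.167 CPM with PBS. SAH + PBS replicate 3 thus lay among the SAH + 6-gingerol rats. The scaffold subunits of protein phosphatase PP2A had opposite signs. Ppp2r1a had 662, 629 and 619 CPM with 6-gingerol, against 484, 404 and 529 CPM with PBS (log2 fold change 0.43, adjusted p = 0.347 in edgeR), and the much lower Ppp2r1b had a log2 fold change of -0.94 with overlap (adjusted p = 0.354 in edgeR), or -0.56 without SAH + PBS replicate 2.

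Downstream, 8 of 20 AKT substrates and mTORC1 genes had positive and 12 negative values. Their median was -0.09, or -0.02 without SAH + PBS replicate 2. Of the 20, 3 were higher and 7 lower without overlap, where 13.8% and 13.4% of all genes were. At an unadjusted p under 0.05 in edgeR, 1 was higher and 6 were lower, where 5.22% and 8.71% of all genes were. Gsk3b, a kinase that AKT inhibits, had 86.6, 83.2 and 90.0 CPM with 6-gingerol, against 74.6, 65.5 and 67.5 CPM with PBS. The groups did not overlap, and the log2 fold change came to 0.32 (standard error 0.10, adjusted p = 0.347 in edgeR) with all rats and 0.29 without SAH + PBS replicate 2. Foxo6, a FOXO transcription factor of the brain, had a log2 fold change of -0.86, and Eif4ebp1, a repressor of translation that mTORC1 phosphorylates, -1.60, both without overlap and with an adjusted p of 0.347 in edgeR. Without SAH + PBS replicate 2 they were at -0.55 and -0.87.

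FOXO factors leave the nucleus when AKT phosphorylates them, and 17 genes known as FOXO targets were tested. Of these 12 had negative and 5 positive log2 fold changes, with a median of -0.29, or -0.15 without SAH + PBS replicate 2, and 2 had an unadjusted p under 0.05, where 13.9% of all genes did. Bcl6, a transcriptional repressor, had 29.5, 33.6 and 30.8 CPM with 6-gingerol, against 46.0, 58.9 and 39.3 CPM with PBS (log2 fold change -0.62, adjusted p = 0.343 in edgeR). Cdkn1b, the cell cycle inhibitor p27, also did not overlap, at -0.27 (adjusted p = 0.366 in edgeR). Gadd45a, a growth arrest and stress gene, overlapped, with 8.09, 6.52 and 7.12 CPM with 6-gingerol, against 31.0, 66.0 and 4.95 CPM with PBS. Many of these genes also answer to other factors, and FOXO activity was not measured.

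Sgk1, a relative of AKT that also needs PI3K and that glucocorticoids induce, had the smallest p of the 87 genes. It had 61.7, 41.8 and 56.6 CPM with 6-gingerol, against 95.8, 118 and 85.8 CPM with PBS. The groups did not overlap, and the log2 fold change of -0.90 (standard error 0.19, adjusted p = 0.334 in edgeR, adjusted p = 0.00522 in DESeq2) was -0.77 without SAH + PBS replicate 2 (adjusted p = 0.131 in edgeR). Its relatives Sgk2 (0.60, or 0.23 without that rat) and Sgk3 (-0.17) overlapped.

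**Figure D5:**
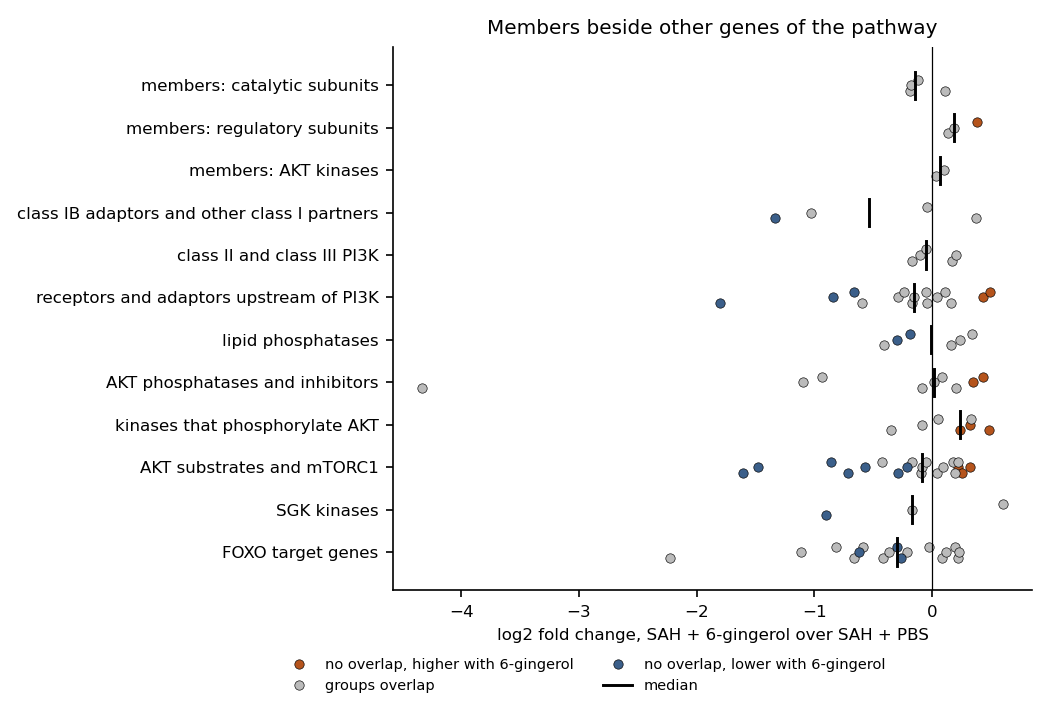
Log2 fold change of members and other pathway genes by list, SAH + 6-gingerol over SAH + PBS, with the median of the list as a bar and colour for genes whose groups do not overlap (orange higher, blue lower with 6-gingerol). The 9 members lie between -0.19 and 0.38, and the other lists reach from -4.33 (Trib3) to 0.60 (Sgk2).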

How the data were processed

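Counts and FPKM per gene were deposited for 6 libraries, covering 22396 genes. Of the authors' pipeline, the submitters' processing notes list StringTie 1.3.3b, limma 3.32.10, HISAT2 2.1.0 and the Rnor_6.0 build without roles, whereas STAR and DESeq2 stand in the methods of the paper. How reads were counted, with which strand setting and annotation release, is not given in the sources used here. Deposited FPKM equal the counts over 1 length per gene and the library total, within 0.0128% for 13995 genes with at least 50 counts in every library. No member overlapped another gene of the table, on either strand.

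Counts were fitted with edgeR 4.0.16 in R 4.3.3 (filterByExpr with minimum count 10 and minimum total count 15, TMM, glmQLFit, glmQLFTest, with p adjusted by Benjamini-Hochberg over all 17096 genes). The standard error was taken as the log2 fold change over the square root of F, and 95% intervals use the fit's t distribution. Alternatives were DESeq2 1.42.0, limma-voom 3.58.1, scaling by RLE factors or by library totals, no filter, at least 1 CPM in each rat, limma on log2(FPKM + 1), filtered (FPKM 0.5 or more in 3 libraries) and unfiltered, and on log2(FPKM + 0.1), each rat left out, and a replicate block. Ratios were compared by exact permutation. Scripts were tested on simulated data. No 2 libraries agreed within counting noise. The p-values set the difference between the groups against the spread between these rats. In edgeR, DESeq2 and limma the spread of each gene is estimated in part from the other genes.

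The members and lists were chosen with earlier results of these data known. Besides the members, the genes named are the 3 of smallest p of each list, together with Pdpk1, Mtor, Rictor and markers, apart from results not reported here. Angptl7, the level per neuronal markers and the TMM-scaled sums of subunits were chosen after values were seen. Bbc3 of the FOXO targets, Ccr2, Cd79a, Foxj1, Ltf and Pecam1 had no matching row and were not analysed here. Markers of astrocytes (2029 to 2261 CPM summed in SAH + 6-gingerol rats, 1506 to 2165 CPM in SAH + PBS rats), oligodendrocytes (3433 to 6627 and 2463 to 4949 CPM), macrophages (18.4 to 24.7 and 21.7 to 46.1 CPM), endothelium (119 to 130 and 131 to 282 CPM) and choroid plexus and ependyma (4.68 to 10.8 and 4.53 to 1125 CPM) were also summed.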

Additional observations from a re-analysis of the deposited data

How the results depend on the processing

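The count of members past an adjusted p of 0.05 was 0 in all 16 alternatives. Pik3ca, Pik3cg, Pik3r1, Pik3r2 and Pik3r3 kept the sign of their log2 fold change in all 16. With library totals the log2 fold changes were -0.012 (Pik3cb), -0.020 (Akt1) and -0.091 (Akt2). On log2(FPKM + 1) they were -0.0028, -0.018 and -0.10 in the same order, with and without the filter, and on log2(FPKM + 0.1) they were -0.0021, -0.018 and -0.11, since FPKM follow library totals. With 1 rat left out at a time, values ran from -0.015 to 0.18 (Pik3cb), from -0.29 to 0.037 (Pik3cd) and from -0.17 to 0.13 (Akt2). The log2 ratio of Akt1 over Akt2 ran from -0.023 to 0.27, that of the leukocyte over the widely expressed subunits from -0.26 to 0.034, and that of regulatory over catalytic subunits from 0.25 to 0.53.

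Over all genes the count of calls was 3 with edgeR and all rats, and ran from 0 to 91 with 1 rat left out (91 without SAH + PBS replicate 2, 15 without SAH + PBS replicate 3, 0 without SAH + 6-gingerol replicate 2 or 3, against 1121 and 1125 at an unadjusted p under 0.05). It was 663 with DESeq2, 0 with 1 CPM in every rat (2025 unadjusted) and 5 on log2(FPKM + 0.1). Of the 87 other pathway genes DESeq2 called 5, and the other 15 alternatives called 0. The cause of these differences was not tested. The replicate block gave 0 calls over all genes, against 1678 at an unadjusted p under 0.05. Samples of the same number did not deviate together (r across genes -0.04, 0.0053 and 0.0015), so the numbers were not taken to pair the rats. With the block, Pik3r2 was at 0.40 on the log2 scale (adjusted p = 0.491 in edgeR), and sign-flip permutation of the paired ratio differences gave p from 0.25, the smallest that 3 pairs allow, to 0.75.

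The lowest count of any member in a library was 428 (Pik3cg, SAH + 6-gingerol replicate 3). The part of depth in these results was not tested. A p that missed the threshold does not show that levels were equal.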

Other observations

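For each member the gene with the most similar profile was sought among the 10431 other genes averaging 10 CPM or more, by the root-mean-square difference of log2 CPM over the 6 libraries, each gene centred on its own mean. The nearest were Hnrnpdl for Pik3ca (0.0173), Slc16a13 for Pik3cb (0.0462), Tspyl2 for Pik3cd (0.0566), Naf1 for Pik3r1 (0.0331), Adap1 for Pik3r2 (0.0237), Gsta1 for Pik3r3 (0.0449), Cdc5l for Akt1 (0.0126) and Grm2 for Akt2 (0.0738). For Pik3cg, itself under that minimum, it was Mios (0.0445) among 10432 genes. The median gene lay at 0.221 (Akt1) to 0.302 (Pik3cd). Nearness over 6 libraries is a description.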
